A study of Mus musculus with 4 samples.

Results

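The 2.5-Mb stretch of mouse chromosome 2 around Gata3 (chr2:8700000-11200000, mm10) was examined for NR2F1 signal away from the gene itself. It held 209 distal regions of the 263639 regions of the whole data set. Peaks called in the 4 libraries were merged wherever they overlapped by at least 1 bp, and members were chosen by these peak calls alone: every merged region of the stretch was taken that lay outside the Gata3 gene (chr2:9857078-9890034, minus strand) and 20 kb on either side of it. A region about 540 kb from the Gata3 start was included by name and is called the far element here. Which libraries called them is given as a description without a test. The 13 merged regions over the Gata3 gene and its flanks are no members and serve as a reference.

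The data are anti-NR2F1 single-cell CUT&Tag, in which an antibody brings the transposase Tn5 to DNA near the bound protein, and the cut sites are counted. Cells came from the microdissected rhombomere 4 region of embryonic day 10.5 mouse hindbrain, 2 libraries from WT and 2 from homozygous Fam5snv/snv embryos, all carrying the Isl1MN-GFP transgene that marks motor neurons. Fam5snv is a single-base knock-in in a regulatory element of Gata2 on chromosome 6, so that the stretch on chromosome 2 described here was not edited. Each library pooled embryos, 26 and 26 for WT replicates 1 and 2 and 8 and 16 for Fam5snv/snv replicates 1 and 2. Cells without GFP were also admitted late in sorting to reach the number needed, so the barcodes need not all be motor neurons, and cell types were not assigned here.

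NR2F1 (COUP-TFI) is a nuclear receptor that binds direct repeats of the core AGGTCA, often as a dimer or a heterodimer with the retinoid X receptor, and acts in neural patterning and neuronal fate. GATA3 is a zinc-finger transcription factor that, in the hindbrain, acts with its paralogue GATA2 in the formation of inner ear efferent neurons from the motor neuron domain of rhombomere 4. Gata3 is also needed in T cells, the inner ear, the kidney and the sympathetic nervous system, and in mice its expression depends on enhancers that can lie far from the gene. Downstream of its 3′ end is a gene desert with noncoding transcripts only. Upstream are Taf3 (a TFIID subunit that reads methylated histone H3), Atp5c1 (the gamma subunit of mitochondrial ATP synthase), Kin (a nuclear zinc-finger protein of DNA replication and repair), Itih2 and Itih5 (heavy chains of the inter-alpha-trypsin inhibitors, which bind hyaluronan), Sfmbt2 (a Polycomb group protein, with a large microRNA cluster inside the gene in mice) and Prkcq (protein kinase C theta, a kinase of T cell receptor signalling).

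The sequences that bear most on an NR2F1 data set are those distal regions with paired AGGTCA cores. None of the 209 distal regions held an exact direct repeat of AGGTCA with 1 base between the cores (AGGTCA, any base, AGGTCA, on either strand), 4 held such a repeat with at most 1 mismatch, and 1 held an exact repeat with no base between the cores (AGGTCAAGGTCA). Such repeats were rare everywhere. The counts in the 209 were made over the whole length of each region. Within 250 bp of the midpoint, 0, 5 and 0 of the 209 held such repeats, in the same order. Beside these were 0.497%, 2.70% and 0.0929% of all merged regions in the same window. Of the 5 distal regions with a repeat over their whole length, the 4 called in all 4 libraries are shown. The paired cores are in capitals, and the stretch is given 5′ to 3′ on the strand of the repeat, from the GRCm38 (mm10) reference.
Far element, 540 kb downstream (chr2:9338510-9338809, plus strand): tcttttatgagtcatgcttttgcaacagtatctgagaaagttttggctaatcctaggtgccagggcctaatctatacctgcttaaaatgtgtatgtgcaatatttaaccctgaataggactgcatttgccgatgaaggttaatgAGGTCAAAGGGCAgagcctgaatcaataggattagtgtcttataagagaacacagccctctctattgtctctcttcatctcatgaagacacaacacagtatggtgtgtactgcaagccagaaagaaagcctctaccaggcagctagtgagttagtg
Region 1059 kb upstream (chr2:10938588-10938887, minus strand): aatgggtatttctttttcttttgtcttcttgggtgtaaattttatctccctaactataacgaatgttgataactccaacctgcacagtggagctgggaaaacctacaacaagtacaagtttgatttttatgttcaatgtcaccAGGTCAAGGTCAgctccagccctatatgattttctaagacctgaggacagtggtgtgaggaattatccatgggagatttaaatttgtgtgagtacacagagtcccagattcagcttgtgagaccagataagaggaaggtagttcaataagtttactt
Region 528 kb upstream, in a Sfmbt2 intron (chr2:10406889-10406988, plus strand): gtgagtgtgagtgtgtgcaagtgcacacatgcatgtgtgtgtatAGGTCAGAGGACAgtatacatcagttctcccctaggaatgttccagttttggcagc
Region 829 kb upstream, between Sfmbt2 and Prkcq (chr2:10707597-10707696, minus strand): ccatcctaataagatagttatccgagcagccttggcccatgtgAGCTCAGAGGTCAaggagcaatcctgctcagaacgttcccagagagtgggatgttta
Against the repeat with 1 base between the cores, counted from 1 at its 5′ end, the far element differed by T11G, the region 528 kb upstream by T11A and the region 829 kb upstream by G3C. The repeats of the far element and of the region 829 kb upstream lay inside the peaks of all 4 libraries. The repeat 528 kb upstream lay outside the peak of WT replicate 1. The exact repeat 1059 kb upstream lay inside the peak of Fam5snv/snv replicate 2 only. In the other libraries the signal of that region was thus counted in peaks that do not hold the repeat. The fifth region, chr2:10062121-10062657 in an intron of Atp5c1, was called in Fam5snv/snv replicate 2 only and held AGGTCAAAGTTCA, which differs from the same repeat by G10T.

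The libraries differed widely in depth, which bears on every value below. They held 1377 to 2740 barcodes and 3083946 to 10341894 cut sites, and both WT libraries held fewer cut sites than both Fam5snv/snv libraries. WT replicate 1 stood apart, with 42168 called peaks against 137996 to 170993 in the other libraries. Each library counts cut sites only inside its own peaks, so that a library without a peak in a region is given 0 there whether or not any cut site fell in it, and a called peak can also hold 0 cut sites of the barcodes kept. Pairs of libraries shared 3 to 12 barcodes, at most 0.799% of the smaller library. Levels are given in CPM, cut sites relative to a fixed library size after TMM scaling over the tested regions, without division by length. Among promoter regions of marker genes, 5 of 6 motor neuron genes had a tested region, at a median of 97.7 to 104.6 CPM over the 4 libraries, and 4 of 4 progenitor genes did, at 68.97 to 85.6 CPM. Lower medians were found for 4 of 5 interneuron genes at 17.2 to 30.4 CPM, 4 of 4 mesenchyme genes at 14.5 to 32.7 CPM, 3 of 4 otic genes at 13.7 to 24.3 CPM and 1 of 4 blood genes at 15.3 to 21.4 CPM, and 0 of 3 endothelial genes had a tested region. The part of other cell types in the results below was not tested.

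Most distal regions around Gata3 were small and were called once. Of the 209, 144 (68.9%) were called in 1 library, 22 in 2, 26 in 3 and 17 (8.13%) in all 4, beside 58.8% of all merged regions called once and 13.6% called in all 4. The 17 regions called in every library held 66.1% of the 10162 cut sites counted over the distal regions. They had a median of 289 cut sites summed over the libraries and a median width of 1615 bp, against 5 cut sites and 186.5 bp for the regions called once. In 21 regions (10.0%, beside 11.8% of all merged regions) no barcode kept by the authors had a cut site in any library. WT replicate 1 called 18 of the 209 (8.61%, beside 14.2% of all merged regions), WT replicate 2 called 117 (56.0%, beside 53.9%), Fam5snv/snv replicate 1 called 78 (37.3%, beside 49.3%) and Fam5snv/snv replicate 2 called 121 (57.9%, beside 63.7%).

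Most of the regions called once came from WT replicate 2 or Fam5snv/snv replicate 2. WT replicate 2 alone called 68 regions (32.5%, beside 21.9% of all merged regions), Fam5snv/snv replicate 2 alone called 57 (27.3%, beside 24.3%) and Fam5snv/snv replicate 1 alone called 19 (9.09%, beside 12.5%). Both Fam5snv/snv libraries and no WT library called 16 (7.66%, beside 8.79%). No distal region was called in both WT libraries alone (beside 0.0178% of all merged regions) or in WT replicate 1 alone (beside 0.0652%), patterns that were rare everywhere. A further 25 regions (11.96%, beside 12.3%) were called in every library except WT replicate 1.

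**Figure D1:**
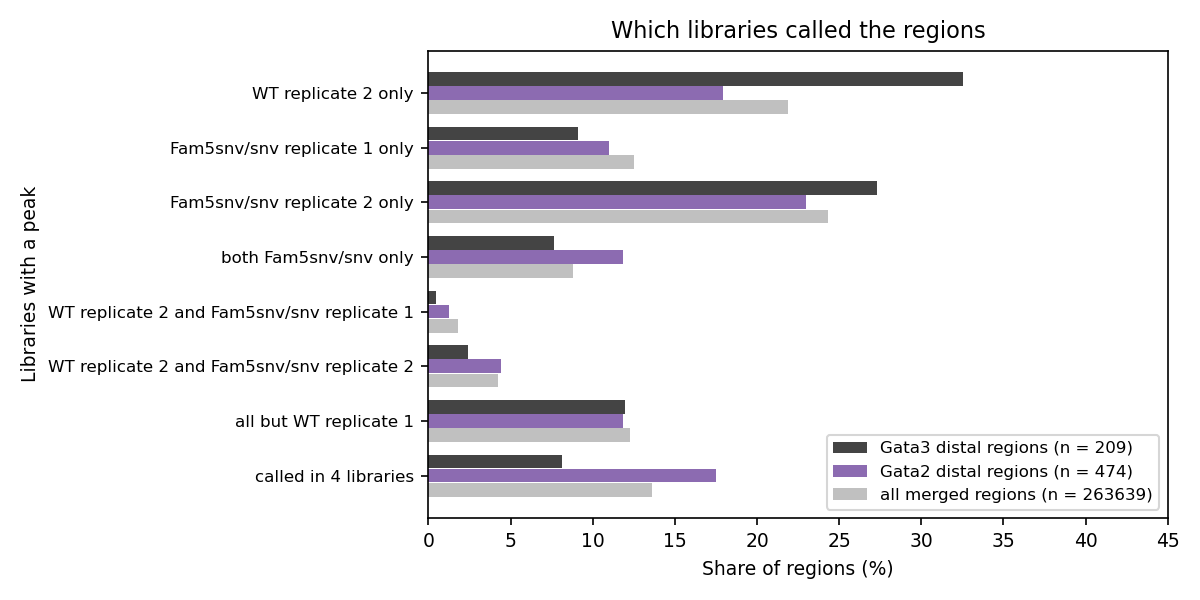
Share of regions (%) by the set of libraries that called a peak in them, for the 209 Gata3 distal regions, the 474 Gata2 distal regions and all 263639 merged regions. Calls in WT replicate 2 alone make up 32.5% of the Gata3 distal regions, and calls in all 4 libraries 8.13%.

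By position, 114 distal regions (54.5%) lay between genes, 80 (38.3%) in introns, 8 in exons and 7 within 1 kb of the start site of a protein-coding gene. Over all merged regions 36.3% lay between genes, 48.7% in introns and 8.04% at promoters. The regions between genes held 46.3% of the distal cut sites and the 7 promoter regions 31.3%. Per region the promoter class was highest, with a median of 304 cut sites summed over the libraries against 2.5 to 10.5 in the other classes, and 5 of the 7 were called in all 4 libraries. By contrast, 3 of the 80 intron regions and 8 of the 114 regions between genes were called in all 4. The same counts by class over all merged regions are not given here, so the contrast need not be particular to this stretch.

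The gene desert downstream of Gata3 was sparser than the upstream side. It held 60 distal regions over 1.14 Mb, or 52.8 per Mb, whereas the upstream side held 149 over 1.29 Mb, or 116 per Mb. The desert had 4 regions called in all 4 libraries and no promoter, and the upstream side had 13. The summed level of the desert regions was 69.9 and 135 CPM per Mb in the WT libraries, against 86.4 and 100.6 CPM per Mb in the Fam5snv/snv libraries. On the upstream side it was 190 and 371 CPM per Mb in WT against 279 and 311 CPM per Mb in Fam5snv/snv. The upstream side was thus higher in each of the 4 libraries, and on neither side did the genotypes separate. In windows of 100 kb the number of distal regions ranged from 0 in chr2:9000001-9100000, deep in the desert, to 28 in chr2:10200001-10300000, which spans the end of Itih5 and the gap before Sfmbt2.

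**Figure D2:**
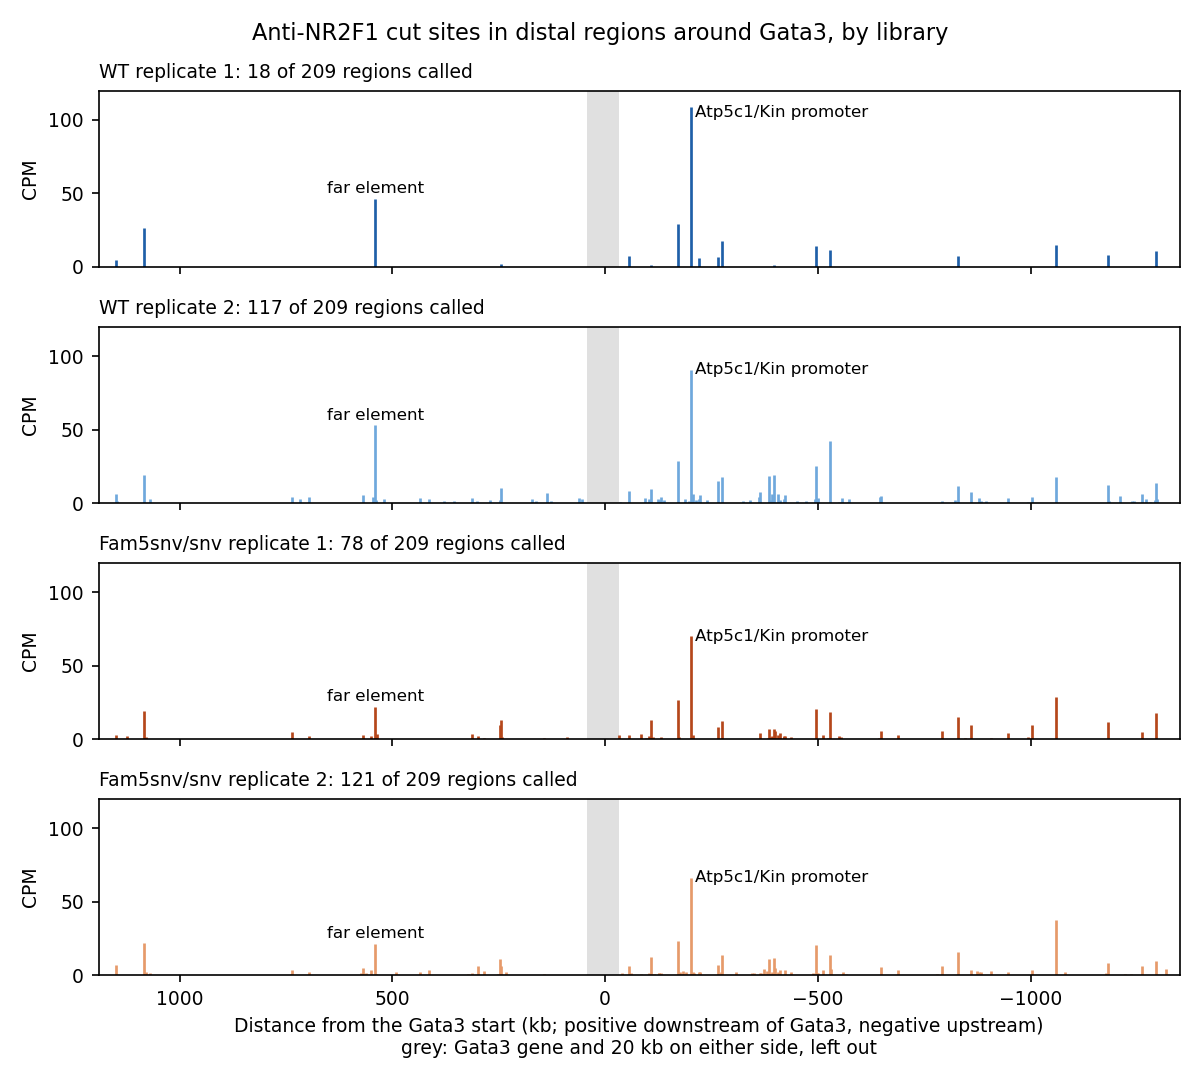
Level (CPM, y axis) of each of the 209 distal regions against its distance from the Gata3 start (kb, x axis; positive values downstream of the gene, negative values upstream), 1 panel for each library. The far element is the tallest region of the desert in every library except Fam5snv/snv replicate 2, at 46.2 and 52.8 CPM in WT against 22.0 and 21.4 CPM in Fam5snv/snv.

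The far element (chr2:9337393-9339449) was the only region called in all 4 libraries over the stretch of desert from 245 to 1084 kb downstream of Gata3, ends left out. Its midpoint lay 540 kb downstream of the nearest start site of a coding Gata3 transcript (chr2:9878600) and 552 kb from the 5′ end of the gene record. No gene of the annotation overlapped it. Its nearest neighbours were a processed pseudogene 66.9 kb away on one side and the noncoding RNA Gm13219 12.98 kb away on the other. The 2057 bp of the element matched only themselves in the mouse genome in a nucleotide search, and 13.9% of them were repeat-masked. The peaks of the 4 libraries covered 1511, 2057, 1676 and 1553 bp and shared the stretch chr2:9337420-9338930.

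Cut sites in the far element numbered 132 in WT replicate 1, 150 in WT replicate 2, 161 in Fam5snv/snv replicate 1 and 169 in Fam5snv/snv replicate 2. These numbers are close to each other, while the whole libraries held 3083946 and 3580517 cut sites in WT and 8967987 and 10341894 in Fam5snv/snv. Its level was 46.2 and 52.8 CPM in the WT libraries (49.5 ± 4.61, SD, n = 2) and 22.0 and 21.4 CPM in the Fam5snv/snv libraries (21.7 ± 0.453, SD, n = 2). The genotypes did not overlap, and both WT libraries were above both Fam5snv/snv libraries. In WT the far element ranked 2nd of the 17 regions called in every library, behind only the shared Atp5c1 and Kin promoter, and in Fam5snv/snv it ranked 4th. Among the 5250 tested regions of the genome more than 100 kb from any coding start site, its mean WT level ranked 400th.

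As the far element was named with earlier results of these data known, its difference is given as a description. The log2 fold change, Fam5snv/snv over WT, was −1.19 (SE 0.22, 95% interval −1.72 to −0.66), or 2.28-fold higher in WT, with an unadjusted p = 0.0011 and an adjusted p = 0.573 in edgeR's quasi-likelihood test over 35770 regions. It did not pass the adjusted threshold of 0.05, and neither did any other region, 0% in either direction. It ranked 40th of the 35770 regions by p, and 0.746% of them had a lower log2 fold change. DESeq2, run on the same counts, called it lower in Fam5snv/snv, with an adjusted p = 0.000643, as it did 0.542% of all tested regions, and called 1.02% higher.

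The size of this difference depended on how the regions were scaled. Restricted to the 8900 regions that every library covered by at least 50%, which keeps the far element because its peaks have similar widths, the log2 fold change was −0.90 with an adjusted p = 0.0828. Per kb of called peak, the far element held 30.6 and 25.6 CPM per kb in WT against 13.1 and 13.8 CPM per kb in Fam5snv/snv, a log2 fold change of −1.06. On that scale, however, the median of all tested regions was itself −0.76, and the median tested region was covered over 621 and 1271.5 bp in WT and 1496.5 and 1728 bp in Fam5snv/snv, so that the far element lay 0.31 below the median region. Scaled by barcodes in place of cut sites, its log2 fold change was −0.27 while the median of all tested regions was 0.97. The difference is thus one relative to other regions, and cut sites per 1000 barcodes were 51.3 and 109 in WT and 70.8 and 61.7 in Fam5snv/snv, which overlap.

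Ratios within a library need no scaling between libraries. The far element held 0.691 and 0.505 cut sites for each cut site of the stronger of 2 Gata3 promoter regions called in all 4 libraries (chr2:9876766-9886181, named the Gata3 promoter region here) in the WT libraries, against 0.298 and 0.301 in the Fam5snv/snv libraries. Against the weaker one (chr2:9888735-9891465), over the start at the 5′ end of the gene record, with 16, 81, 99 and 80 cut sites, the ratios were 8.25 and 1.85 in WT and 1.63 and 2.11 in Fam5snv/snv, which overlap. Its share of the cut sites of the 17 regions called in every library was 0.145 and 0.132 in WT and 0.0712 and 0.0701 in Fam5snv/snv. The ratio to the stronger promoter region and this share were thus lower in both Fam5snv/snv libraries than in both WT libraries, and the ratio to the weaker region was not. The peaks of the Gata3 promoter region covered 2784 bp in WT replicate 1 and 7732 to 8329 bp in the other libraries. Those of the 17 regions covered a median of 490 bp in WT replicate 1 and 1245 to 1429 bp in the other libraries. The far element itself was covered over 1511 bp in WT replicate 1 and 1553 to 2057 bp in the others. The part of these widths in the first ratio and in the share was not tested.

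The signal of the far element came from many barcodes with few cut sites each. A cut site was found in 66 of 2572 barcodes (2.57%) of WT replicate 1, 68 of 1377 (4.94%) of WT replicate 2, 73 of 2274 (3.21%) of Fam5snv/snv replicate 1 and 75 of 2740 (2.74%) of Fam5snv/snv replicate 2. The median positive barcode had 2 cut sites, as the ends of 1 fragment give, and no barcode had more than 6. After each barcode was thinned to 567 cut sites, the share was 1.86% (exact binomial 95% interval 1.31 to 2.57) and 2.47% (1.72 to 3.43) in the WT libraries. It was 0.748% (0.436 to 1.19) and 0.803% (0.504 to 1.21) in the Fam5snv/snv libraries. The intervals of the WT libraries lay above those of the Fam5snv/snv libraries, and they cover counting error only. Thinning left out 641 barcodes of WT replicate 1. Barcodes are not replicates, and no test between genotypes was made over them. Since counts were summed over barcodes, fewer cells with signal and less signal in each cell cannot be told apart in the summed levels.

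**Figure D3:**
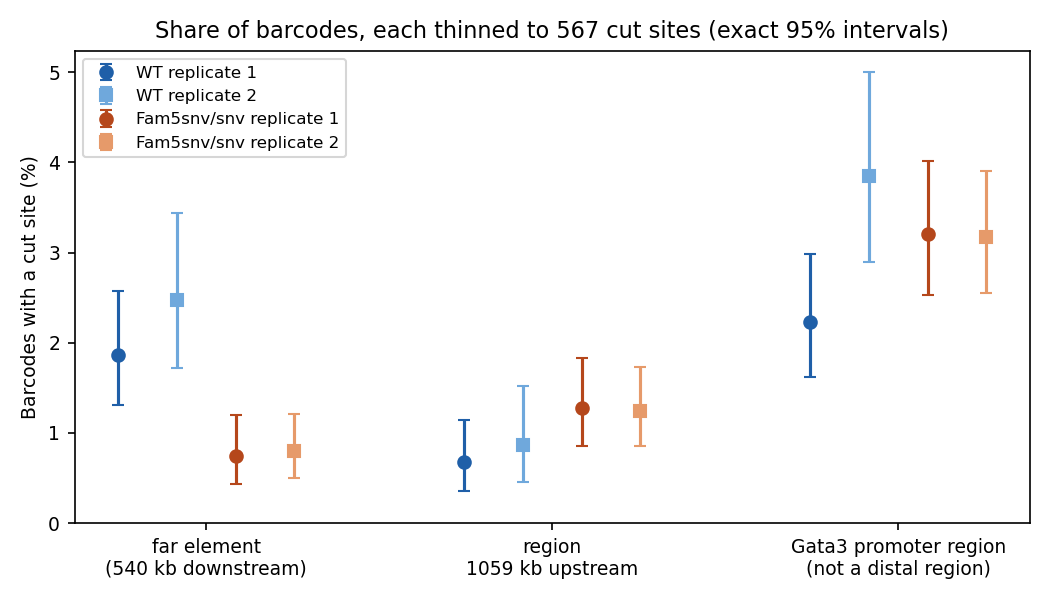
Share of barcodes (%, y axis) with at least 1 cut site in the far element, in the region 1059 kb upstream of Gata3 and in the Gata3 promoter region, after thinning each barcode to 567 cut sites, with exact binomial 95% intervals, for each of the 4 libraries. The far element is at 1.86% and 2.47% in WT and at 0.748% and 0.803% in Fam5snv/snv.

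The region 1059 kb upstream (chr2:10936808-10938893), between Sfmbt2 and Prkcq and 234 kb from the Prkcq start, differed in the other direction. It held 42 and 51 cut sites in WT and 211 and 299 in Fam5snv/snv, or 14.7 and 17.9 CPM against 28.8 and 37.8 CPM. Both Fam5snv/snv libraries were above both WT libraries. The log2 fold change was 1.03 (SE 0.29, 95% interval 0.34 to 1.72), or 2.04-fold, with an unadjusted p = 0.0097 and an adjusted p = 0.573 (edgeR), so that it did not pass. Of the 17 regions called in every library it ranked 8th by WT level and 2nd by Fam5snv/snv level. The peaks covered 717 and 1239 bp in WT and 1429 and 2086 bp in Fam5snv/snv, and per kb of called peak the libraries overlapped, with 20.5 and 14.5 CPM per kb in WT against 20.2 and 18.1 CPM per kb in Fam5snv/snv. The log2 fold change on that scale was 0.14, against the median of −0.76 for all tested regions. Thinned to 567 cut sites, 0.673% and 0.871% of WT barcodes and 1.28% and 1.24% of Fam5snv/snv barcodes had a cut site there, with overlapping intervals. The far element held 3.14 and 2.94 cut sites for each cut site of this region in the WT libraries, against 0.763 and 0.565 in the Fam5snv/snv libraries. Their order was thus inverted between the genotypes in each of the libraries, although the pair was set side by side after the values were seen.

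The promoter shared by Atp5c1 and Kin had the highest level of all distal regions in each library. The region over the divergent start sites of Atp5c1 and Kin (chr2:10078336-10081609) held 310, 258, 512 and 526 cut sites in WT replicates 1 and 2 and Fam5snv/snv replicates 1 and 2. This was 109 and 90.7 CPM in WT against 70.0 and 66.5 CPM in Fam5snv/snv, without overlap. The log2 fold change was −0.55 (SE 0.20), with an unadjusted p = 0.031 and an adjusted p = 0.573 (edgeR). The Taf3 promoter region (chr2:10047582-10049575) ranked 3rd of the 17 in both genotypes, at 29.1 and 28.5 CPM in WT against 26.5 and 23.6 CPM in Fam5snv/snv, a log2 fold change of −0.20 (SE 0.25). The Itih5 promoter region (chr2:10153067-10154058) was at 17.9 and 17.9 CPM in WT against 12.3 and 14.2 CPM in Fam5snv/snv, a log2 fold change of −0.44 (SE 0.34). Both regions were lower in both Fam5snv/snv libraries, and both intervals of the difference included 0.

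The Sfmbt2 and Prkcq promoter regions did not separate the genotypes. The Sfmbt2 region (chr2:10372263-10375786), which also overlaps the noncoding transcript Gm13261, was at 14.01 and 25.3 CPM in WT against 20.8 and 20.7 CPM in Fam5snv/snv. The Prkcq region (chr2:11171962-11174505) was at 10.5 and 13.4 CPM in WT against 17.8 and 9.86 CPM in Fam5snv/snv. The other 2 promoter regions were weak and were called once, 1 near a second Taf3 start site (13 cut sites, Fam5snv/snv replicate 2) and 1 near the Sfmbt2 start (7 cut sites, WT replicate 2). Itih2 had no region within 1 kb of its coding start sites in any library. The Gata3 promoter region, given as a reference, covers start sites of Gata3 coding transcripts and of 4930412O13Rik, but not the start at the 5′ end of the Gata3 record. It was at 66.9 and 104 CPM in WT against 74.0 and 71.1 CPM in Fam5snv/snv, a log2 fold change of −0.24 (SE 0.25). Of the 10 protein-coding genes with a start site in the stretch, 9 had a tested promoter region, and none passed the adjusted threshold.

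**Figure D4:**
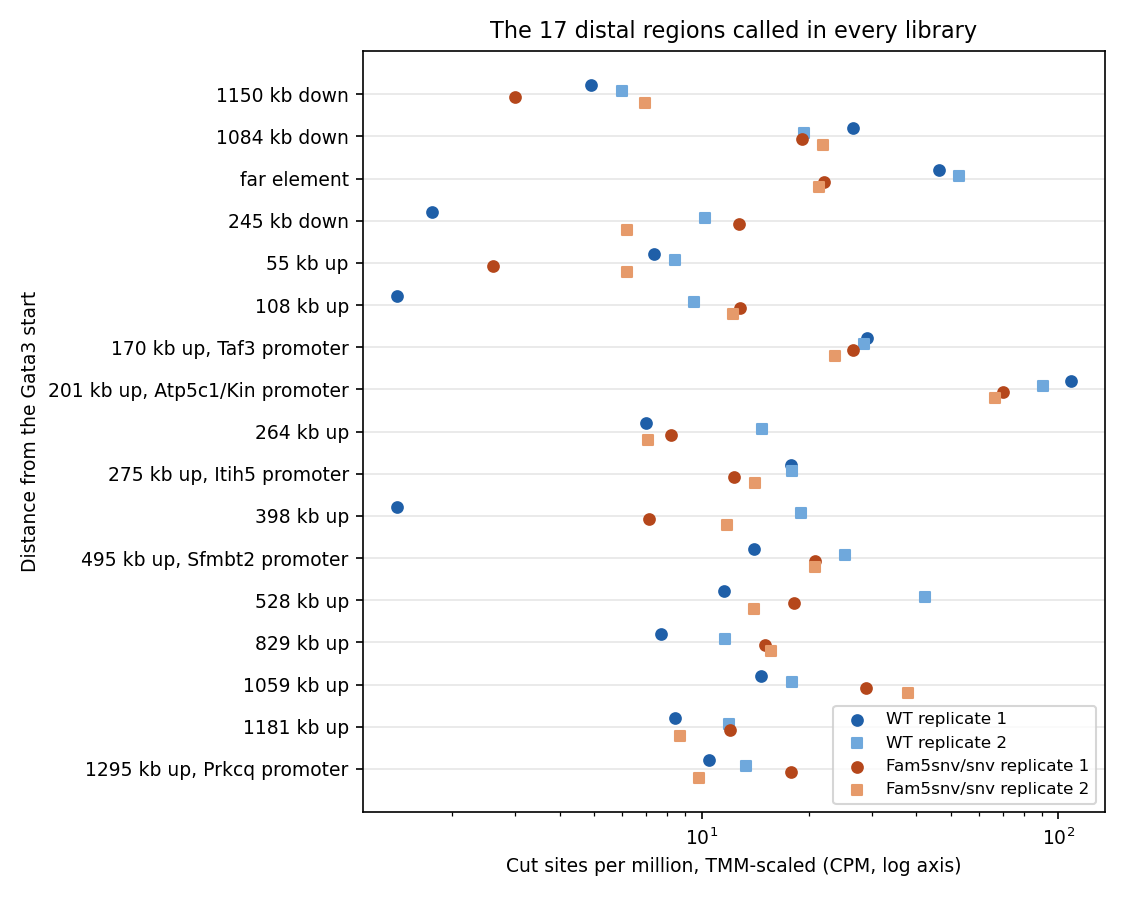
Level (CPM, log axis) in each library of the 17 distal regions called in all 4 libraries, ordered from the far downstream end (top) to the far upstream end (bottom). The far element (46.2 and 52.8 CPM in WT, 22.0 and 21.4 CPM in Fam5snv/snv) and the region 1059 kb upstream (14.7 and 17.9 against 28.8 and 37.8 CPM) separate the genotypes in opposite directions.

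The desert held 3 other regions called in every library. The region 1084 kb downstream (chr2:8793958-8795385) was the tallest of them, with 76, 55, 140 and 173 cut sites, or 26.6 and 19.3 CPM in WT against 19.1 and 21.9 CPM in Fam5snv/snv. The region 1150 kb downstream (chr2:8728000-8729210) was at 4.90 and 5.98 CPM in WT against 3.01 and 6.95 CPM in Fam5snv/snv. In both the genotypes overlapped. The region 245 kb downstream (chr2:9632838-9634452) had 5 cut sites in WT replicate 1 and 29, 93 and 49 in the other libraries, and 128 bp of it was called in WT replicate 1 against 752 to 1615 bp in the others.

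Inside Taf3, the region 55 kb upstream (chr2:9933294-9934296) was the nearest to Gata3 of those called in every library. It was at 7.36 and 8.44 CPM in WT against 2.60 and 6.20 CPM in Fam5snv/snv, a log2 fold change of −0.84 (SE 0.71). A second Taf3 intron region, 108 kb upstream (chr2:9985539-9986683), went the other way, with 4 and 27 cut sites in WT and 94 and 97 in Fam5snv/snv. Its log2 fold change of 1.201 (SE 0.78, adjusted p = 0.642, edgeR) rests on peaks of 153 bp in WT replicate 1 and 914 to 1145 bp in the other libraries. For both, the interval of the difference included 0.

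The regions around Itih5 and Sfmbt2 were led by WT replicate 2. The region 528 kb upstream (chr2:10405487-10407974), which carries a repeat shown above, had 33 cut sites in WT replicate 1, 120 in WT replicate 2, 133 in Fam5snv/snv replicate 1 and 111 in Fam5snv/snv replicate 2. At 11.6 and 42.2 CPM the WT libraries lay on either side of the Fam5snv/snv libraries, at 18.2 and 14.03 CPM. The region 398 kb upstream (chr2:10275452-10276873), between Itih5 and Sfmbt2, had 4 and 54 cut sites in WT, and 34 bp of it was called in WT replicate 1. The region 264 kb upstream (chr2:10142303-10143683), 10.6 kb before Itih5, was at 7.01 and 14.8 CPM in WT against 8.20 and 7.08 CPM in Fam5snv/snv. Beyond Sfmbt2, the region 829 kb upstream (chr2:10706864-10708675) was at 7.71 and 11.6 CPM in WT against 15.04 and 15.7 CPM in Fam5snv/snv, without overlap and with a log2 fold change of 0.67 (SE 0.42). The region 1181 kb upstream (chr2:11059583-11060482), in an exon of the noncoding RNA Gm13264, was at 8.41 and 11.96 CPM in WT against 12.03 and 8.72 CPM in Fam5snv/snv.

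**Figure D5:**
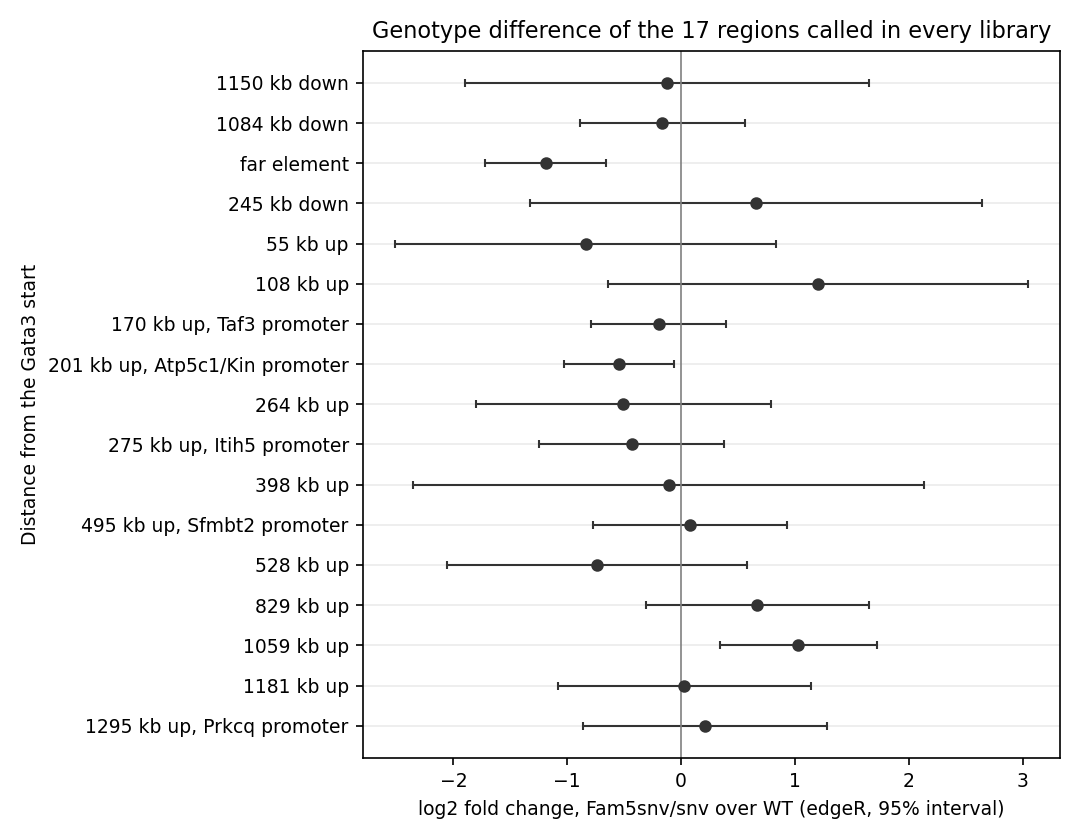
Log2 fold change, Fam5snv/snv over WT, of the 17 distal regions called in all 4 libraries, with 95% intervals from edgeR (x axis), in the same order from downstream (top) to upstream (bottom). The far element is lowest (−1.19) and the region 108 kb upstream highest (1.201), with an interval of −0.64 to 3.04 for the latter.

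Of the 17 regions, the share that separated the genotypes is given beside that of all tested regions, and each share rests on few regions. With edgeR, 0 of 17 passed the adjusted threshold, as did 0% of all tested regions. At an unadjusted p under 0.05, 1 region was higher in Fam5snv/snv (5.88%, beside 5.29% of all tested regions) and 2 were lower (11.8%, beside 3.37%). At that threshold DESeq2 gave 1 higher (5.88%, beside 7% of all tested regions) and 2 lower (11.8%, beside 6.91%). The lower counts of both methods include the far element. After adjustment DESeq2 called 0 higher (beside 1.02%) and 1 lower (beside 0.542%), the far element, which had been named with earlier results known. The sign was positive in 7 of 17 (beside 51.7%) and negative in 10 of 17 (beside 48.3%). The Fam5snv/snv libraries were both above the WT libraries in 3 of 17 regions (17.6%, beside 23.2% of all tested regions) and both below in 5 of 17 (29.4%, beside 21.4%). The median log2 fold change was −0.13, beside 0.02 for all 35770 regions. Replicates of WT differed by over 2-fold in 5 of the 17 regions and by up to 13.6-fold, and those of Fam5snv/snv in 3 regions and by up to 2.39-fold. With 1 WT library left out, edgeR takes the lone library to vary as the Fam5snv/snv libraries do. Without WT replicate 2, it called 4 of 17 higher (beside 11.4% of all tested regions) and 2 lower (beside 6.21%). The regions higher were those 245 kb downstream and 108, 398 and 1059 kb upstream, at adjusted p = 0.0036 to 0.0338, and those lower were the far element (adjusted p = 0.0076) and the Atp5c1 and Kin promoter (0.0124). Without WT replicate 1, it called 0 higher (beside 4.17%) and 2 lower (beside 1.17%), the far element (adjusted p = 0.0074) and the region 528 kb upstream (0.0123).

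Among the 192 distal regions not called in every library, the 5 of highest mean level were all called in every library except WT replicate 1. The highest was the region 385 kb upstream between Itih5 and Sfmbt2 (chr2:10262162-10264476), with 52 cut sites in WT replicate 2 and 51 and 90 in the Fam5snv/snv libraries, or 18.3, 6.97 and 11.4 CPM. In the desert, chr2:9630269-9631714, over the unclassified transcript Gm37866 and close to the region 245 kb downstream, had 5 cut sites in WT replicate 2 and 70 and 89 in the Fam5snv/snv libraries. The other 3 lay between Sfmbt2 and Prkcq. These were chr2:10736699-10737804 with 22, 72 and 30 cut sites, chr2:10881010-10881957 with 12, 69 and 31, and chr2:11139429-11140347 with 17, 35 and 50, in the order WT replicate 2, Fam5snv/snv replicate 1 and Fam5snv/snv replicate 2. None of them was tested, as a library without a peak gives no count.

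Several distal regions lay close together. The 114-kb gap between Itih5 and Sfmbt2 held 28 distal regions, 1 called in all 4 libraries and 6 in 3. Its summed level was 64.0 CPM in WT replicate 2 and 39.2 and 49.8 CPM in Fam5snv/snv, but 1.40 CPM in WT replicate 1. The Sfmbt2 gene held 25 distal regions, but none of them fell in the 53.0-kb stretch that carries its 119 annotated microRNA genes. The 577-kb gap between Sfmbt2 and Prkcq held 36, of which 3 were called in all 4 libraries.

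Summed over all 209 distal regions, signal did not separate the genotypes. As a share of all cut sites of a library, the sum was 301 and 502 CPM in the WT libraries (402 ± 142, SD, n = 2) and 374 and 395 CPM in the Fam5snv/snv libraries (384 ± 14.3, SD, n = 2). Both Fam5snv/snv values lay between those of WT (exact two-sided permutation test, p = 1.0, where the smallest p that 2 against 2 libraries allow is 0.333). The peaks behind these sums covered 10.1 kb in WT replicate 1 and 46.1 to 65.9 kb in the other libraries. The far element alone made up 14.2% and 8.34% of the sum in WT and 4.80% and 4.14% in Fam5snv/snv. Per 1000 barcodes the sum was 361 and 1306 cut sites in WT and 1476 and 1489 in Fam5snv/snv (exact two-sided permutation test, p = 0.333), a scale on which the median of all tested regions also moved.

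Sequence features, which calling did not use, were counted in the distal regions and in all merged regions. AGGTCA on either strand within 250 bp of the midpoint was found in 62 of 209 (29.7%), beside 36.2% of all merged regions. A GATA site (AGATA or TGATA followed by A or G, on either strand) was found in 115 of 209 (55.0%), beside 54.5%. The direct repeat with 1 base between the cores and at most 1 mismatch was found in 5 of 209 (2.39%) in this window, which can reach past the ends of a small region, beside 2.70%. Among the 17 regions called in every library these shares were 8 (47.1%, beside 33.8% of all regions called in every library), 11 (64.7%, beside 45.2%) and 3 (17.6%, beside 3.002%). Within 100 bp of the midpoint they were 2 (11.8%, beside 15.9%), 7 (41.2%, beside 21.8%) and 0 (beside 1.26%). The shares of AGGTCA and of the repeat were thus above the background in the wider window only. With 17 regions these are counts of few regions, and a match is a description of the sequence and not of binding. The median GC content around the midpoint was 45.5% for the distal regions, beside 48.5% for all merged regions. It was 41.7% for the 17, beside 52.1% for all regions called in every library. The far element held 2 AGGTCA cores, 1 of them in the paired repeat, and 6 GATA sites over its length.

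The neighbourhood of the paralogue Gata2 on chromosome 6, over the same span measured from the Gata2 start (chr6:86883925-89383925), was denser. It held 474 distal regions, of which 83 (17.5%) were called in all 4 libraries, against 17 of 209 (8.13%) around Gata3. A share of 30.2% of the Gata2 distal regions lay between genes, against 54.5% around Gata3, and their median distance to a coding start site was 23.1 kb against 84.9 kb. The 83 tested regions around Gata2 had a median log2 fold change of 0.07, and their values ranged from −1.05 to 2.04, against −1.19 to 1.201 around Gata3. No region of either neighbourhood passed the adjusted threshold (edgeR).

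Close to the edges of the choice, the nearest distal regions on either side of Gata3 were weak. These were chr2:9824357-9824574 (7 cut sites in WT replicate 2, no peak elsewhere) and chr2:9911585-9912179 (20 cut sites in Fam5snv/snv replicate 1, no peak elsewhere), 32.5 and 21.6 kb from the gene. Just inside the flanks that were left out lay chr2:9847680-9848080 (15 cut sites in Fam5snv/snv replicate 2) and chr2:9897860-9900162 (48, 7 and 53 cut sites in WT replicate 2 and Fam5snv/snv replicates 1 and 2). Just outside the downstream end of the stretch lay chr2:8690245-8692757, called in all 4 libraries with 85, 70, 161 and 192 cut sites.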

How the data were processed

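The 4 single-cell libraries, 2 per genotype, were made with an antibody against NR2F1. The authors deposited for each its called peaks, the barcodes kept as cells and raw counts, the whole-number sum of transposase cuts for each barcode in each peak of that library. Peak calling was separate for each library. Cell Ranger ATAC and mm10 are named by the submitters' processing notes, and peak positions carry no score or other value. Members, lists and alternatives were chosen with earlier results of these data known. The far element was taken as the region 540 kb from the nearest coding Gata3 start site. The planned rule counted from the 5′ end of the gene record, from which this region lies 552 kb. With the distance it allows, the planned rule takes the same region. The start point was changed after the data were seen.

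Counts were summed over barcodes, with no further cell or doublet filter. A merged region was tested if every library had called it and 2 or more of them held 10 or more cut sites, which left 35770 for edgeR 4.0.16 (quasi-likelihood test, TMM, no block, residual df 2), R 4.3.3, with Benjamini-Hochberg adjustment at 0.05. The p-values measure the spread between pooled libraries. DESeq2 1.42.0, other scalings, a replicate block and leaving out each library were alternatives. Tests were checked on simulated counts. Regions were annotated with GENCODE M21. Named were all distal regions called in every library, those within 1 kb of a coding start site, and the 5 of highest mean level among the rest. Barcodes were thinned to the 25th percentile of WT replicate 1. The exact binomial intervals of barcode shares cover counting error only. The intervals of log2 fold changes come from the edgeR fit and take in the spread between libraries. Promoter regions of 12 regulators gave 0 adjusted calls. A library with a control antibody was not analysed here.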

Additional observations from a re-analysis of the deposited data

How the results depend on the processing

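The log2 fold change of the far element kept its direction in all 12 alternatives to the edgeR test with TMM scaling. Among the fits that keep 2 libraries per genotype, the far element passed the adjusted threshold with DESeq2 only (−1.20). Its log2 fold change ranged from −1.29 to −1.09 over the 4 fits that leave out 1 library, each with a lone library in 1 genotype. DESeq2 called 366 regions of the genome higher and 194 lower in Fam5snv/snv, 1 of the latter a Gata3 distal region, and the fit restricted to regions that every library covered by 50% called 14 and 4. Leaving out 1 library gave 0 to 4094 regions higher and 0 to 2221 lower over the genome, and 0 to 4 and 0 to 2 of the distal regions. The median log2 fold change of the distal regions less that of all tested regions ranged from −0.28 to 0.25 over these fits, and the cause was not tested. Scaled per kb of called peak, which lowers the median of all tested regions to −0.76, the regions 245 kb downstream (−0.24) and 495 (−1.27), 829 (−0.32), 1181 (−0.45) and 1295 kb upstream (−1.11) turned negative. Scaled by all cut sites, those 495 (−0.017) and 1181 kb upstream (−0.071) did so. The region 398 kb upstream turned to 0.55 with a replicate block, which changed no other direction or call. Over the tested regions, WT replicate 1 and Fam5snv/snv replicate 1 deviated from the means of their genotypes with a correlation of 0.025. The replicate numbers were thus not taken to pair the libraries. When 1 library was left out, 9 regions changed sign. The ranges were −0.85 to 0.35 and −0.38 to 0.077 for those 1150 and 1084 kb downstream, −0.12 to 2.42 for that 245 kb downstream, and, going upstream, −0.96 to 0.12 (264 kb), −1.01 to 2.74 (398 kb), −0.29 to 0.57 (Sfmbt2 promoter), −1.40 to 0.48 (528 kb), −0.22 to 0.30 (1181 kb) and −0.27 to 0.58 (Prkcq promoter). The summed distal signal, −0.06 on the log2 scale, turned to 0.83 per 1000 barcodes and ranged from −0.39 to 0.35 without 1 library. Thinned to 879 cut sites, 2.64% of barcodes of WT replicate 1 had a cut site in the far element. Within 100 bp of the midpoint, 14.8% of distal regions held AGGTCA (beside 18.1% of all merged regions) and 30.1% a GATA site (beside 26.9%). Scaling by barcodes was added after the data were seen. With 2 libraries per genotype the edgeR test had a residual df of 2, and a p above the threshold does not show that levels were equal.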

Other observations

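Barcodes with a cut site in the far element were compared with the other barcodes of the same library for signal in the Gata3 promoter region, as values only. In WT replicate 1, 5 of 66 barcodes with a far element cut site (7.58%) also had one in the promoter region, against 3.47% of the others. The same shares were 10.3% and 8.10% in WT replicate 2, 27.4% (exact binomial 95% interval 17.6 to 39.1) and 8.86% in Fam5snv/snv replicate 1, and 8.00% (2.99 to 16.6) and 8.86% in Fam5snv/snv replicate 2. The barcodes with a far element cut site were deeper in every library, with medians of 1533.5 against 869, 2937.5 against 1833, 4540 against 2666 and 4619 against 2954 cut sites. The higher share in Fam5snv/snv replicate 1 did not recur in replicate 2, at a similar depth, and rests on 20 barcodes.

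Among the 12 regulator genes chosen for comparison, each had a tested promoter region. The 2 lowest log2 fold changes were those of Gata2 (−0.55, unadjusted p = 0.036, adjusted p = 0.573, edgeR) and Tal1 (−0.43, SE 0.40), and the highest was that of Zfpm2 (1.02, SE 0.62), which encodes the GATA cofactor FOG2. None passed the adjusted threshold.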
